A study of Mus musculus with 8 samples.

Results

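The 10 genes described here encode cytokines that basophils are known to make, interleukin 4 (Il4), interleukin 13 (Il13), interleukin 6 (Il6), oncostatin M (Osm) and colony stimulating factor 1 (Csf1), and receptor chains for 4 of these cytokines, Il4ra, Il6ra, Il6st, Osmr and Lifr. They are 10 of the 31053 genes in the count matrix and were taken by name. The 5 ligands were read in the cells that carried basophil markers and the 5 receptor chains in every group of cells, library by library, as raw unique molecular identifiers (UMIs, 1 per captured RNA molecule).

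The libraries were droplet single-cell libraries from sorted liver stromal cells, 4 from mice on a high fat, high cholesterol diet (HFHC 1 to 4) and 4 from mice on a chow control diet (control 1 to 4). All animals were labelled as male C57Bl/6 mice, bought at 6 to 8 weeks of age and fed for 20 to 32 weeks, and the sort was meant to enrich endothelial cells. The sample titles write the HFHC diet as high calorie, where the design text has cholesterol. The labels number 1 animal per library.

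Interleukin 4 and interleukin 13 both signal through the interleukin 4 receptor alpha chain, encoded by Il4ra, and are known for driving alternative activation of macrophages. Interleukin 6 first binds its own alpha chain, encoded by Il6ra, and then gp130, the shared signalling chain encoded by Il6st; in liver it is known as an inducer of acute phase proteins in hepatocytes. Oncostatin M signals through gp130 paired with the chain encoded by Osmr, Lifr encodes the related chain of the leukemia inhibitory factor receptor, and Csf1 is the growth factor of macrophages.

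The matrix held 3416 cell barcodes, of which 3192 remained once a barcode seen in several libraries was assigned to the richest of them. Barcodes recurred mainly among 5 libraries (HFHC 1 to 3, control 1 and 2), which shared 33 to 65 in each pair, and any other pair shared at most 4. The kept libraries ranged from 47 to 857 cells and from 170448 to 2309209 UMIs. Control 4 was labelled male like the rest but had Xist, which is transcribed from an inactive X, in 71.3% of its cells and no Y-linked UMI, while the other 7 libraries had no Xist UMI.

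Cells were assigned to 13 gates by fixed lists of 8 marker genes, none of them a member, with at least 3 markers detected. The basophil gate held 44 cells, 27 in HFHC 3 and 17 in control 2, and none in the other 6 libraries. As the gate was built on its markers, their levels describe it and do not test its identity: Hdc, the enzyme that makes histamine, was detected in 43 of the 44 cells, Ms4a2, a chain of the IgE receptor, in 34 of them, and Mcpt8, a basophil protease, in 29. Outside the gate Ms4a2 was detected in 0 and Mcpt8 in 8 of 3148 cells, and the 6 mast cell markers, which the gating did not use, had no UMI inside it. Elane and Ctsg, granule proteases known from neutrophil precursors, were also among the genes leading the gate. Markers of other classes were present too. The 8 hepatocyte markers, 3 of them at 0, summed to 1197 CPM (a gene's UMIs scaled to a common library total) in the gate of HFHC 3 and 673 CPM in that of control 2, against 10771 and 5739 CPM for the basophil markers. The monocyte markers summed to 404 CPM in HFHC 3 and 582 CPM in control 2, the neutrophil markers to 461 and 260 CPM, the T or NK cell markers to 130 and 582 CPM, the LSEC markers to 159 and 199 CPM, and the macrophage markers, 7 of 8 at 0, to 0 and 76.5 CPM. Among them Cxcr2, from the neutrophil list, was detected in 25 of the 44 cells and Ccr2, from the monocyte list, in 17. In control 2, Nkg7 made up all 38 UMIs of the T or NK cell list, in 2 cells. Ly6c2 made up 21 of the 38 UMIs of the monocyte list there, in 1 cell. The part of these markers of other classes in the values below was not tested.

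Il4 and Il13 lie next to each other on chromosome 11, Il4 at chr11:53602982-53618669 and Il13 at chr11:53631324-53634702 (mm10, GENCODE vM21), while Il6 lies at chr5:30013114-30019981. Their promoters, from 250 bases before to 50 after the RefSeq start (GRCm38.p6), are shown because Il4 and Il6 were detected in the basophil gate and Il13 was not. Capitals mark the only match in each to a GATA motif, which is AGATAA, its variant AGATAG, the form TGATAA or its variant TGATAG, on either strand. The Il4 and Il13 windows are chr11:53618616-53618915 and chr11:53634653-53634952 on the minus strand, and the Il6 window is chr5:30012864-30013163 on the plus strand.
Il4: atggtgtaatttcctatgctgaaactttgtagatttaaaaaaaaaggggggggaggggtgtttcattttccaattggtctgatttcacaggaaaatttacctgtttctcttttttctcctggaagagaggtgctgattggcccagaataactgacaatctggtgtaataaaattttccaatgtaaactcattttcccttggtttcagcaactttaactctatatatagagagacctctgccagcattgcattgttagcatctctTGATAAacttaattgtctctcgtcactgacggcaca
Il13: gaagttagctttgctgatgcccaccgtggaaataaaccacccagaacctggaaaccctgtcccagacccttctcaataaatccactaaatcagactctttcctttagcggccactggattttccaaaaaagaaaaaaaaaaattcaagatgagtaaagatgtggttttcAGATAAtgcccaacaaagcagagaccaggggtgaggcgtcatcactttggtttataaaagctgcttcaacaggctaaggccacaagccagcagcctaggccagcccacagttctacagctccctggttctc
Il6: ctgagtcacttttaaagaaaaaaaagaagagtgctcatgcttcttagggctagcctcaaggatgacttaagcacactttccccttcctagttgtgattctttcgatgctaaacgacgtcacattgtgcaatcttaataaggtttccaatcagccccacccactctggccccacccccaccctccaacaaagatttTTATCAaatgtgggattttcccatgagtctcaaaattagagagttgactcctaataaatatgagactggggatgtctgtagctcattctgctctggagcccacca
Such a match was present in 9778 of 32851 mouse promoters of this length (29.8%), and it is a description of the letters only. The RefSeq table matched 9 of the 10 members, and Osm was not among them.

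Il4 was nearly confined to the basophil gate. Of 32 Il4 UMIs in the kept cells, 31 (96.9%) fell in it, and the other was in a T or NK cell of control 4. In the basophil gate Il4 had 23 UMIs in HFHC 3, in 16 of 27 cells (59.3%; exact binomial 95% interval 38.8 to 77.6%), and 8 UMIs in control 2, in 7 of 17 cells (41.2%; 18.4 to 67.1%). The Il4 level was 332 CPM (exact Poisson 95% interval 210 to 498) in HFHC 3 and 122 CPM (52.9 to 241) in control 2. No cell held more than 3 Il4 UMIs. As a measure of free RNA, Il4 was at 0 in all 1281 cells of the hepatocyte gate, whose median depth was 2039 UMIs in HFHC 3 and 1102 in control 2, against 2484.5 in the basophil gate. Intervals and limits of this kind cover counting error only.

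Il13, the neighbour of Il4 and the second ligand of the interleukin 4 receptor alpha chain, had 0 UMIs in every gate. Of the basophil gate, 0 of 44 cells had an Il13 UMI, which allows a share of up to 6.82% of cells with a UMI.

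Il6, the ligand of the receptor chain encoded by Il6ra, was detected in both libraries of the gate. It had 9 UMIs in HFHC 3, in 6 of 27 cells (22.2%), and 12 UMIs in control 2, in 7 of 17 cells (41.2%), or 130 and 184 CPM. These 21 UMIs were 84% of the 25 Il6 UMIs in all, and 2 of the others were in a single macrophage of HFHC 1.

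Osm was detected in 18 of 27 basophil-gate cells in HFHC 3 (66.7%) and in 16 of 17 in control 2 (94.1%). It had 90 UMIs, or 3.33 per cell, in HFHC 3 and 145 UMIs, or 8.53 per cell, in control 2. The most in a cell was 14 Osm UMIs in HFHC 3 and 31 in control 2. The basophil gate held 235 of the 270 Osm UMIs (87.0%), and the monocyte gate held 10 and the neutrophil gate 8. In the hepatocyte gate 0.160% of cells in HFHC 3 and 0.306% in control 2 had an Osm UMI, far under the shares in the basophil gate.

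Csf1 was less restricted to the gate than the other detected ligands. It had 38 UMIs in HFHC 3, in 16 of 27 cells, and 34 UMIs in control 2, in 13 of 17 cells, or 548 and 520 CPM. Without 1 cell of control 2 that held 24948 UMIs and none of any member, the control 2 level was 842 CPM for Csf1, 198 CPM for Il4, 297 CPM for Il6 and 3589 CPM for Osm. The basophil gate held 72 of 323 Csf1 UMIs (22.3%), the LSEC (liver sinusoidal endothelial cell) gate 142, the cholangiocyte gate 45 and the fibroblast or mesothelial gate 27. The basophil share of Csf1 was 12.7% without HFHC 3 and 14.6% without control 2. Per gate, the mean Csf1 level was 534 ± 19.6 CPM in the basophil gate (SD, n = 2 libraries, that cell included), 327 CPM in the neutrophil gate of HFHC 3 (6 UMIs, 120 to 713 CPM), 144 ± 27.1 CPM in the cholangiocyte gate (n = 2) and 84.4 ± 27.4 CPM in the LSEC gate (n = 5). The neutrophil interval included the 548 CPM of the basophil gate of that library. The receptor of Csf1, Csf1r, was read in the macrophage gate at 321 CPM in HFHC 1 and 1187 CPM in HFHC 2.

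**Figure D1:**
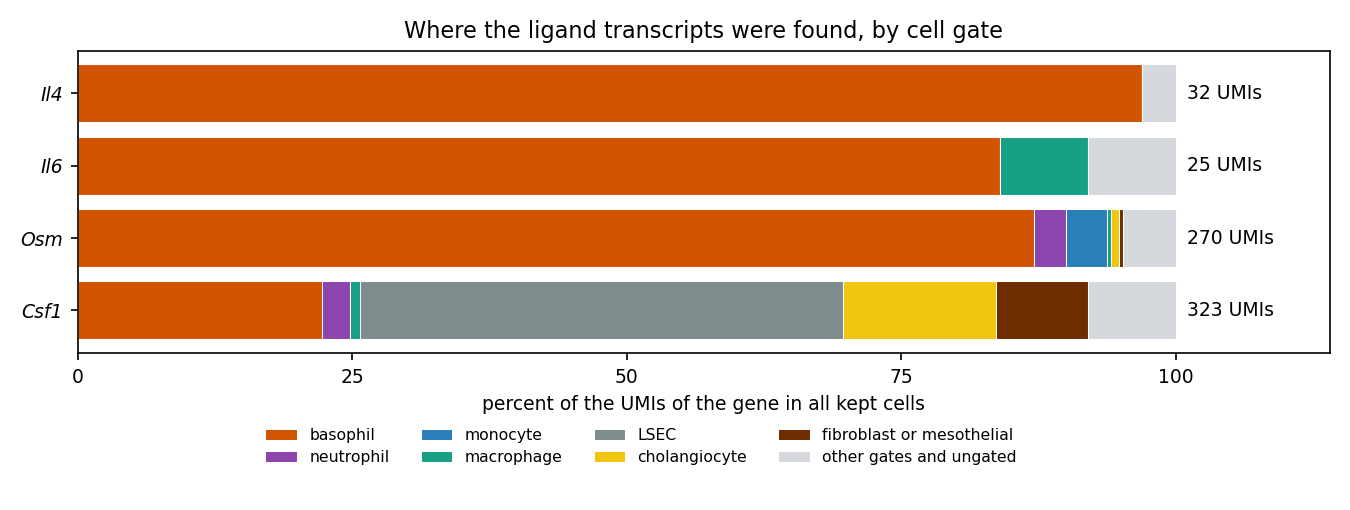
UMIs of each ligand by gate over all libraries, as a share of that gene's UMIs in percent. The basophil gate holds 96.9% of Il4, 84% of Il6, 87.0% of Osm and 22.3% of Csf1 UMIs; Il13, with none, is not drawn.

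Single cells often held more than 1 of these cytokine RNAs. At least 1 ligand was detected in 26 of 27 gate cells in HFHC 3 and in 16 of 17 in control 2. Il4 and Osm were found together in 10 cells of HFHC 3 and 7 of control 2. Il4 without Osm was found in 6 cells of HFHC 3 and in 0 of control 2. Il4, Il6 and Osm were all found in 3 cells of HFHC 3 and 2 of control 2. Cells differ in depth, so with each cell thinned to 1000 UMIs the share with an Osm UMI was 54.1% in HFHC 3 and 83.6% in control 2, and the share with an Il4 UMI 29.1% and 19.6%.

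**Figure D2:**
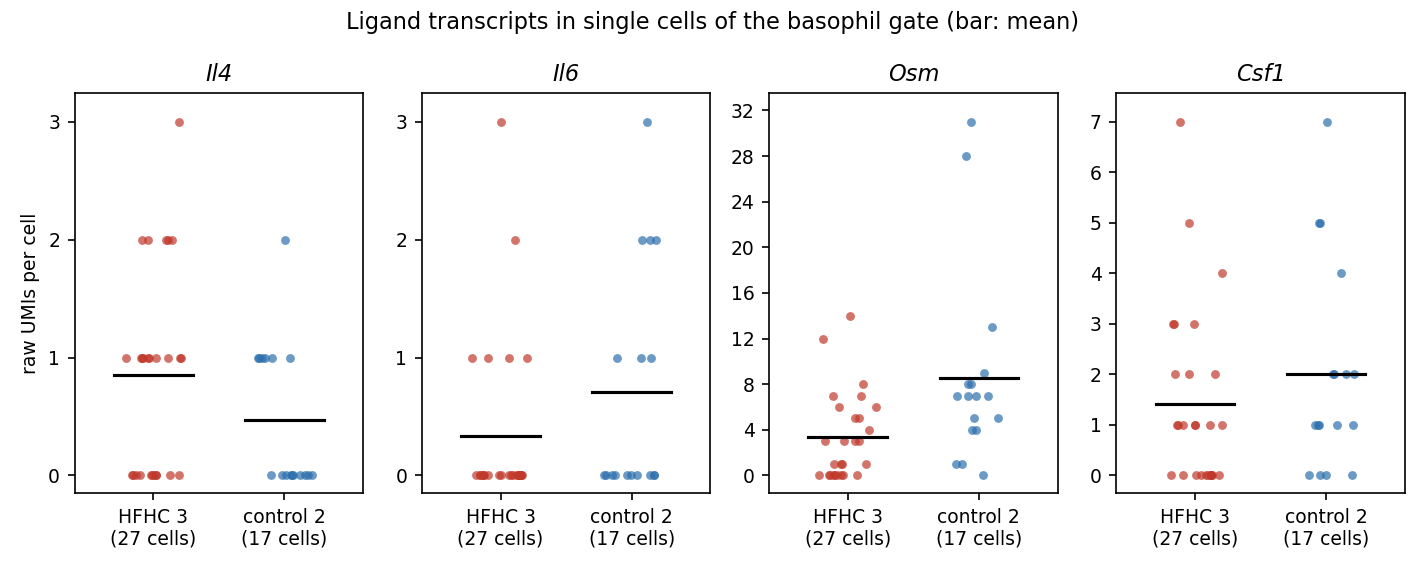
UMIs per cell of Il4, Il6, Osm and Csf1 in the basophil gate, each point a cell and each bar a mean, HFHC 3 (27 cells) left of control 2 (17 cells). Osm reaches 14 UMIs in HFHC 3 and 31 in control 2, and Il4 does not pass 3 in either.

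With 1 library of each diet in the gate, the diets could not be tested there, and the ratio of HFHC 3 over control 2 compares those libraries only. The Il4 ratio was 2.71 (exact conditional 95% interval 1.17 to 7.01), and that of Osm was 0.585 (0.445 to 0.766). The intervals for Il6, 0.707 (0.263 to 1.83), and Csf1, 1.05 (0.645 to 1.72), included equal levels. Some gate cells of far lower depth, such as that of 3021 UMIs in control 2, had 3 hepatocyte markers detected. The cell of 24948 UMIs, also with 3 such markers, held much of the 65348 UMIs of the control 2 gate. Without it the Il4 ratio was 1.67 (0.723 to 4.33), which included equal levels, the Il6 ratio 0.437 (0.163 to 1.13), the Osm ratio 0.362 (0.275 to 0.474) and the Csf1 ratio 0.651 (0.399 to 1.07).

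Within the same library, the gate stood above the pooled remaining cells for each of these ligands. The Il4 level was at least 248-fold higher in the basophil gate than in the rest of HFHC 3 and at least 69.8-fold higher in control 2, against the limit of 3 counts over the rest of the library; with the counting error of the gate included, the exact lower limits were 186 and 44.7. The Osm ratio of the gate over the rest was 153 (92.5 to 266) in HFHC 3 and 292 (165 to 562) in control 2, and the Csf1 ratio was 72.2 (39.8 to 136) and 31.8 (18.7 to 54.4). Across sums per gate and library, edgeR's quasi-likelihood test with terms for gate and library set the basophil gate against the mean of the B cell, LSEC and hepatocyte gates. The basophil sums came from HFHC 3 and control 2 only, and the fit left 2 residual degrees of freedom. Its SEs and p-values are therefore no measure of the spread between mice of a diet. Of 4834 genes tested, 9.47% were higher and 3.68% lower in the basophil gate at an adjusted p under 0.05. Of the members, Csf1 passed the filter on low counts through the LSEC gate as well, whereas Il4, Il6 and Osm passed it only through the basophil gate, so that being called there is no independent support for them. On the log2 scale, the fitted difference of Osm was 10.08 (SE 0.63, edgeR adjusted p = 3.64e-54), that of Csf1 5.63 (SE 0.55, edgeR adjusted p = 2.87e-22), that of Il4 9.10 (SE 1.54, edgeR adjusted p = 1.41e-07) and that of Il6 8.97 (SE 1.67, edgeR adjusted p = 2.61e-06). With no filter on low counts, edgeR called all 4, with an adjusted p of 1.37e-07 for Il4, 2.62e-06 for Il6, 3.87e-45 for Osm and 5.79e-17 for Csf1. That fit used the same counts, so it is no independent support either. Fitted fold changes against gates at or near 0 depend on the prior count. The calls of Il4 and Osm were lost with DESeq2 (adjusted p = 0.377 and 0.252). Il6 had no adjusted p with DESeq2, so it was not called there either. With a minimum of 5 cells the call of Il4 was lost, and with gates of at least 2 markers those of Il4 and Il6. The calls of all 3 were lost with gates of 1 library in the mean, while Csf1 passed in all 16 alternatives run. Leaving out HFHC 1 or HFHC 2, counted among the 16, repeated the main fit, since neither had a sum in it. HFHC 4 and control 1, 3 and 4 entered with an LSEC sum only. Each of these sums was fitted by the term of its own library, so leaving 1 out is no check of the contrast on another mouse. The fit could not be run without HFHC 3 or control 2, the only libraries with basophil sums.

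None of the receptor chains was at a measurable level in the basophil gate itself. Il4ra, Il6ra, Osmr and Lifr had 0 UMIs in its 44 cells, which allows up to 22.3 CPM, and Il6st had 1 UMI, in control 2. For Il6st the gate of control 2 stood at 0.0977 times the rest of that library (0.00246 to 0.549), and the Lifr ratio there had an exact upper limit of 0.670. Both rest on the gate total of 65348 UMIs, of which 1 cell held 24948, and were not computed without that cell. In HFHC 3 the upper limits, 2.20 for Il6st and 7.83 for Lifr, included equal levels. Over both libraries those of Il4ra (1.54), Il6ra (2.11) and Osmr (9.62) included them too.

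Receptors through which basophils are activated were present. Of a list of 10 such genes, 7 passed the filter on low counts. For 4 of them (Il18r1, Il18rap, Csf2rb and Csf2rb2) this was only through the basophil gate, so that being called there is no independent support. Il18r1 and Il18rap, the chains of the interleukin 18 receptor, were read at 231 and 245 CPM in the gate of HFHC 3 and at 199 and 91.8 CPM in that of control 2. The other 3 passed through the LSEC gate as well and were higher in the basophil gate by edgeR: Fcer1g, the signalling chain of the IgE receptor, by 4.42 on the log2 scale (edgeR adjusted p = 5.60e-26), Il3ra, a chain of the interleukin 3 receptor, by 3.25 (edgeR adjusted p = 0.000511) and Crlf2, a chain of the receptor for thymic stromal lymphopoietin, by 2.18 (edgeR adjusted p = 0.00500). Il1rl1, the receptor of interleukin 33, had 1 UMI in HFHC 3 and 2 in control 2, and Ptgdr2 had none. Of a second list of 26 genes of these cytokine pathways, 7 passed the filter and 0 passed the test in the basophil gate, a count near the shares of 9.47% and 3.68% over all genes. Il3, Il5, Il9 and Csf2, cytokines that basophils or mast cells can make, had 0 UMIs there.

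Il6st, the shared gp130 chain, was read at its highest levels in the 3 endothelial gates. Its mean level was 879 ± 202 CPM in the LSEC gate (SD, n = 5), 531 CPM in the vascular endothelial gate of HFHC 4, 275 CPM in the lymphatic endothelial gate of control 4 and 105 ± 16.2 CPM in the cholangiocyte gate (n = 2). Within HFHC 4 the vascular interval of Il6st, 361 to 754 CPM, overlapped that of the LSEC gate, 713 to 825 CPM, so these neighbours in the order were not separated. Within control 4 the lymphatic interval, 184 to 395 CPM, lay under that of the LSEC gate, 838 to 1311 CPM. The hepatocyte gate averaged 5.09 CPM of Il6st, and the neutrophil gate and the B cell gates of 10 or more cells were at 0 (3 UMIs were found in the B cell gate of control 1, of 5 cells).

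Lifr had its highest mean in the LSEC gate too, 604 ± 260 CPM (SD, n = 5), against 120 CPM in the vascular and 37.9 CPM in the lymphatic endothelial gate. In both cases the intervals within the library were apart: 48.2 to 247 CPM in the vascular gate and 287 to 360 CPM in the LSEC gate of HFHC 4, and 10.3 to 97.1 CPM in the lymphatic gate and 768 to 1224 CPM in the LSEC gate of control 4. The hepatocyte gate averaged 9.72 CPM of Lifr.

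Osmr, the chain that pairs with gp130 for oncostatin M, was read at 85.4 CPM (39.0 to 162) in the lymphatic endothelial gate, 66.0 ± 30.0 CPM in the LSEC gate (SD, n = 5) and 47.8 CPM in the fibroblast or mesothelial gate. These neighbours did not differ beyond their spread. Osmr was at 0 in the B cell, T or NK cell, macrophage, monocyte and neutrophil gates. Some of these sums were small: 5 UMIs of Il4ra stood for 273 CPM in the neutrophil gate, and 1 UMI of Osm for 40.9 CPM in the macrophage gate of HFHC 2. A count of 0 there does not show a level under that of the endothelial gates.

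Il4ra was spread over immune and endothelial gates. It was read at 273 CPM (88.6 to 637) in the neutrophil gate, on 5 UMIs, at 154 CPM (70.5 to 293) in the vascular endothelial gate, at 98.8 CPM (61.2 to 151) in the monocyte gate, at 59.2 ± 37.1 CPM in the B cell gate (SD, n = 2) and at 48.0 ± 16.2 CPM in the LSEC gate (n = 5). The intervals of the neutrophil, vascular and monocyte gates overlapped. Within HFHC 4, however, the vascular interval lay above that of the LSEC gate, 33.5 to 61.9 CPM.

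Il6ra, the alpha chain for interleukin 6, was read at 127 CPM (83.7 to 185) in the monocyte gate of HFHC 3, in 16 of 26 cells. It followed at 59.8 CPM in the fibroblast or mesothelial gate and 56.9 CPM in the lymphatic endothelial gate. The LSEC gate averaged 1.74 CPM and the hepatocyte gate 1.86 CPM of Il6ra.

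**Figure D3:**
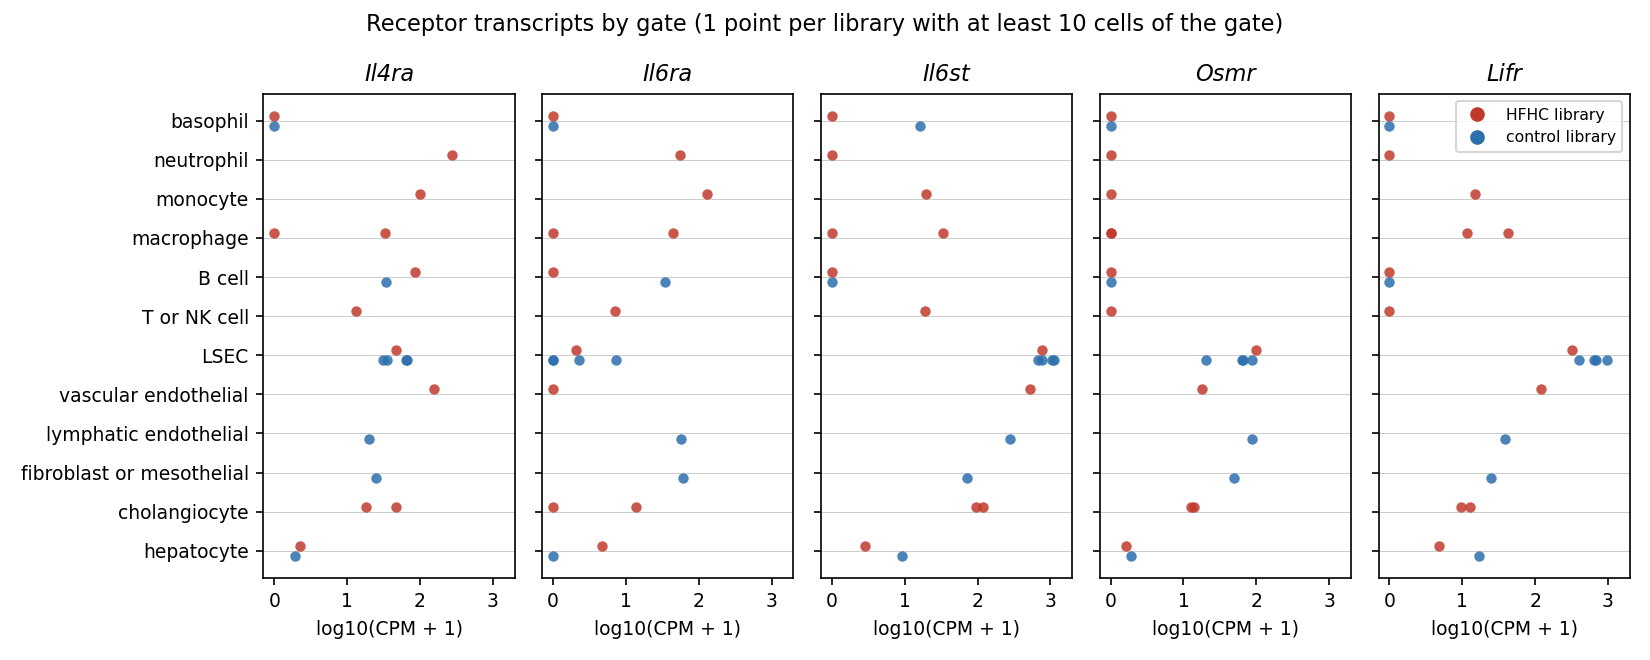
Level of each receptor chain by gate as log10(CPM + 1), each point a library with 10 or more cells of that gate, HFHC libraries in red and controls in blue. Il6st and Lifr have their highest means in the LSEC gate (879 and 604 CPM) and Il6ra in the monocyte gate (127 CPM).

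In the same edgeR fit, with its 2 residual degrees of freedom, the LSEC gate had 17.5% of genes higher and 5.42% lower than the mean of the other gates, and 5 members passed. Il6st was higher by 7.91 on the log2 scale (SE 0.75, edgeR adjusted p = 1.29e-23) and Lifr by 8.41 (SE 0.92, edgeR adjusted p = 8.50e-18), in all 16 alternatives. Both passed the filter on low counts only through the LSEC gate, so that being called there is no independent support for them. With no filter, the same counts gave an edgeR adjusted p of 6.15e-23 for Il6st and 5.97e-16 for Lifr, which adds no support. Il4ra was higher by 4.52 (SE 1.65, edgeR adjusted p = 0.0314) and Csf1 by 2.08 (SE 0.82, edgeR adjusted p = 0.0488), calls kept in 7 of the 10 alternatives that tested Il4ra and 8 of 16 that tested Csf1. Neither had its highest mean in the LSEC gate among the gates of the fit. Il4ra averaged 48.0 CPM there against 59.2 CPM in the B cell gate, the only gate through which it passed the filter. Csf1 averaged 84.4 CPM there against 534 CPM in the basophil gate. Osm, with no UMI in the LSEC gate, was lower (edgeR adjusted p = 0.0397), a call kept in 8 of 16. It passed the filter only through the basophil gate, which the LSEC gate was set against, so this call is no independent support. The B cell and hepatocyte gates averaged 14.2 and 1.23 CPM of Osm. These counts of alternatives include leaving out HFHC 1 or HFHC 2, which repeated the main fit. The Csf1 call was lost without control 3, and the Osm call without control 1 or without control 4. These libraries had only an LSEC sum in the fit, which their own library terms took up. Leaving 1 of them out is thus no check of the contrast on another mouse. Osmr, at 4.80 (SE 2.48), did not pass (edgeR adjusted p = 0.162). Control 2 was the only library of the fit with both the LSEC gate and other gates, so these contrasts rest on it. Of the 7 tested genes of the pathway list, 1 was higher in the LSEC gate, against a share of 17.5% over all genes. It was Jak1, a kinase bound to these receptors, higher by 1.67 on the log2 scale (edgeR adjusted p = 0.00979). The median of the 7 was 1.51, against 0.06 over all genes tested. As 2 of the 7, Il11ra1 and Jak3, passed the filter only through the LSEC gate, that median is no support for a shift of the list. In the hepatocyte gate, where 30.1% of genes were higher and 15.3% lower, Csf1 was the 1 member that passed, lower by a log2 fold change of -5.12 (edgeR adjusted p = 0.000492). Csf1 passed the filter only through the LSEC and basophil gates, which the hepatocyte gate was set against. In the B cell gate, where 8.05% were higher and 4.59% lower, the 1 member that passed was Il6st, at 0 in the HFHC 3 and control 2 sums of the fit and lower (edgeR adjusted p = 0.0456). As Il6st passed the filter only through the LSEC gate, which the B cell gate was set against, this call is no independent support. The basophil and hepatocyte gates averaged 7.65 and 5.09 CPM of Il6st.

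The LSEC gate was the only one in which a member could be set against several control libraries, with HFHC 4 as the only HFHC library of 10 or more cells. Lifr was read at 322 CPM in HFHC 4, against 395, 678, 649 and 977 CPM in control 1 to 4. The HFHC library lay below all 4 controls, whose mean was 675 ± 238 CPM (SD, n = 4), but its counting interval overlapped that of control 1. Csf1 was also below all 4, at 44.0 CPM in HFHC 4, against 120, 89.6, 90.2 and 78.1 CPM in control 1 to 4. Osmr was above all 4, at 97.5 CPM in HFHC 4, against 85.8, 19.2, 62.2 and 65.1 CPM in control 1 to 4. Il6st, at 767 CPM in HFHC 4, against 907 ± 222 CPM in the controls, and Il4ra, at 46.1 CPM, against 48.5 ± 18.6 CPM, lay within the controls.

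With 1 HFHC library, this sets a library against the controls and cannot show whether the diets differ. In edgeR with HFHC 4 against the 4 controls, 0.116% of 4303 genes were higher and 0.163% lower, and 0 of the members passed. The log2 fold changes were -0.92 for Lifr (SE 0.47), -0.93 for Csf1 (SE 0.65) and 0.97 for Osmr (SE 0.63), each with an edgeR adjusted p of 1.00. The fit assumes that the lone HFHC library varies like the controls. Without control 4, the library with Xist, the log2 fold changes were -0.72 for Lifr, -0.98 for Csf1 and 1.02 for Osmr, and 0 members passed. Against single controls, on counting error only, the Lifr ratio ran from 0.329 (control 4) to 0.816 (control 1), the Csf1 ratio from 0.367 (control 1) to 0.563 (control 4) and the Osmr ratio from 1.14 (control 1) to 5.08 (control 2). The interval included equal levels against control 1 for Lifr (0.534 to 1.31), against control 4 for Csf1 (0.238 to 1.62), and for Osmr against control 1 (0.470 to 3.58) and control 4 (0.619 to 4.72). Against control 3, the library nearest in cell number, the ratio was 0.496 for Lifr (0.429 to 0.572), 0.488 for Csf1 (0.325 to 0.725) and 1.57 for Osmr (1.10 to 2.26). Of the pathway list, 9 genes were tested for the diet in the LSEC gate and 0 passed.

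**Figure D4:**
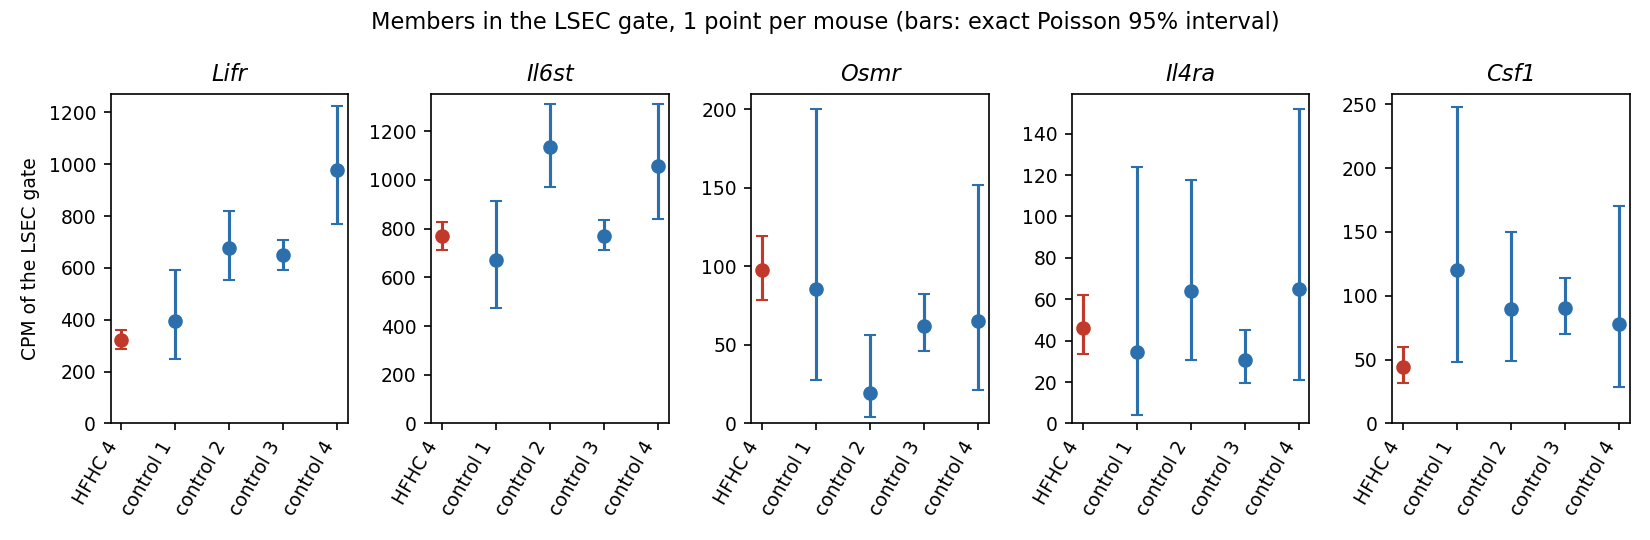
Level in CPM of receptor chains and Csf1 in the LSEC gate, HFHC 4 left of control 1 to 4, with exact Poisson 95% intervals. Lifr and Csf1 in HFHC 4 lie below all 4 controls and Osmr above them.

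With all cells of a library summed, no member tested passed for the diet. Of 6666 genes tested by edgeR, 0 passed (0% in either direction, 54 at an unadjusted p under 0.05, and 0 by DESeq2). The 6 members tested were Csf1, Il4ra, Il6ra, Il6st, Osmr and Lifr. Il4, Il13, Il6 and Osm did not pass the filter on low counts and were not tested. The log2 fold change was -1.80 for Lifr (SE 1.20) and -0.72 for Il6st (SE 0.90), both at an edgeR adjusted p of 0.999. SEs of this size leave large differences open. Within the 5 barcode-sharing libraries alone, a fit added after the data were seen, the log2 fold changes of Lifr and Il6st were -3.66 and -1.64, and 0 genes passed. In such sums, fewer cells of a type and less RNA per cell cannot be told apart, and the libraries differed widely in gates: the LSEC gate held 530 cells of HFHC 4 and 6 of HFHC 3.

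Over the 21 sums of a gate and library, the genes whose log2(CPM + 10) followed a member most closely were found, as a description. For Il4 they were Cyp11a1 (Pearson r = 0.995), Mcpt8 and Ms4a2 (both 0.994), all markers that built the gate. For Lifr they were Mrc1 (0.969), the mannose receptor, Arhgef15 (0.965) and Bmp2 (0.961), and for Osmr Cyp4b1 (0.931), Dock6 (0.923) and Sema6a (0.916). Il6ra was followed less closely, by Naaa at 0.775. The sums share libraries and depth.

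Of 8 genes known as interleukin 4 targets in macrophages, Mrc1 was higher and Arg1 lower in the LSEC gate by edgeR, against shares of 17.5% higher and 5.42% lower over all genes. They were the only 2 that passed the filter, Mrc1 through the LSEC gate alone, so that its call there is no independent support. Arg1 was higher by 5.51 on the log2 scale in the hepatocyte gate (edgeR adjusted p = 8.40e-47), a gate that the LSEC gate was set against. In the basophil gate Arg1 was lower, by a log2 fold change of -1.86 (edgeR adjusted p = 0.00321). A part of interleukin 4 in these values was not tested. In the monocyte gate of HFHC 3, Chil3 was read at 649 CPM and Cd209a, itself a marker of the dendritic cell gate, at 315 CPM. In the macrophage gates of HFHC 1 and HFHC 2, Arg1, Retnla and Chil3 were at 0, and Ccl24 was read at 64.2 and 81.9 CPM.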

How the data were processed

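Liver stromal cells were sorted and made into droplet single-cell libraries. Per the submitters' processing notes, Cell Ranger 3.0.1 and Seurat were used with mm10; no settings are stated. The deposited matrix holds UMI counts per gene and cell, not normalized by the authors. A barcode found in several libraries stayed in the richest (3192 of 3416 cells left). Cells entered a gate with 3 or more of its 8 markers and no tie, and hepatocyte markers counted only where no other class had 3. Scrublet, run in libraries of 100 or more cells, marked 49 of 2922 cells, of them 1 each in HFHC 3 and control 2 and 0 in the basophil gate; they were kept. Counts were summed per library and gate (10 or more cells). Sums went into edgeR 4.0.16 (quasi-likelihood, TMM, filterByExpr, Benjamini-Hochberg over all genes tested, threshold 0.05) in R 4.3.3, a step checked on simulated data; DESeq2 1.42.0 was an alternative. CPM scales a gene's UMIs to the total of its sum. The LSEC test with 1 HFHC library was added after the data were seen. The alternatives are in the closing section. The members and gene lists were chosen with earlier results of these data known. All 10 members were named throughout, with list genes by count and the 3 most alike genes by correlation.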

Additional observations from a re-analysis of the deposited data

Results flagged for a closer look

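A library stood apart from the other 3 of its diet in 7 of 24 groups of values examined. The groups were sums over all cells and sums over the LSEC gate of the controls, and the 7 were all sums over all cells. A chance rate of about 1 in 20 assumes normal values and independent groups, which these sparse sums do not meet, so the count is a description. For the ligands, the library apart was HFHC 3 for Il4 (9.96 CPM), control 2 for Il6 (6.76 CPM) and control 2 for Osm (89.0 CPM). In each of these groups the other 3 libraries were at 0, which by itself sets the remaining library apart. HFHC 3 and control 2 were also the libraries that held the basophil gate. For the receptor chains it was HFHC 4 for Il6st (747 CPM), for Osmr (90.8 CPM) and for Lifr (298 CPM), each above the other HFHC libraries, and control 2 for Osmr (3.38 CPM), below the other controls. HFHC 4 held 530 of the LSEC-gate cells, and the other HFHC libraries held 9 together. The part of these gate numbers in the values was not tested.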

How the results depend on the processing

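No called result changed direction in the alternatives run. The Csf1 ratio of HFHC 3 over control 2, whose interval included 1 in both cases, was 1.05 and turned to 0.651 without cells of over 10000 UMIs. In the basophil contrast, 4 members and 636 genes passed. The members were 2 with gates of at least 2 markers, 1 with DESeq2 and 1 with gates of 1 library in the mean, an alternative chosen after seeing the data. The genes were 208 with DESeq2, 162 with gates of 1 library and 398 with a minimum of 5 cells. In the LSEC contrast, 5 members and 1107 genes passed. The members were 3 with at least 4 markers, with cells of over 10000 UMIs left out (added after seeing the data), with gates of 1 library or with a minimum of 5 cells, and 2 with DESeq2, with every copy of a barcode or with no filter on low counts. They were 3 (without control 3) to 4 (without control 1) with a library of the fit left out. Leaving out HFHC 1 or HFHC 2 repeated the main fit. The other libraries that could be left out of the gate fits had an LSEC sum only, so leaving them out is no check on another mouse. The genes were 295 with DESeq2 and 649 with gates of 1 library. In the LSEC diet fit, 12 genes passed, 1 with at least 2 markers, 2 with a minimum of 5 cells, 6 with no filter, and 3 (without control 1) to 15 (without control 3) with a library left out, with 7 without control 2. With a library left out, the basophil gate held 88.9 to 100% of Il4, 80.4 to 90.1% of Osm and 12.7 to 28.8% of Csf1 UMIs. The Osm ratio of HFHC 3 over control 2 was 0.362 without cells of over 10000 UMIs. The cause of these changes was not tested. Contrasts of gates without HFHC 3, without control 2 or with a minimum of 20 cells could not be fitted. Same-numbered libraries deviated together in some pairs only (correlations 0.498, -0.0809, -0.416 and 0.161), so the numbers were not taken as pairs, and with the replicate block 0 genes passed in the sums of all cells. No paired analysis was possible because within gates the diets shared fewer than 2 numbers. Basophil values rest on 44 cells of 2 libraries, so small shares were not detectable at this depth.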
